A study of Homo sapiens with 4 samples.

Results

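22RV1 and PC3 are human prostate carcinoma cell lines, and this comparison sets the control library of 22RV1 beside the control library of PC3, which is 2 of the 4 RNA-seq libraries in the series. Both control libraries came from cells that carried a non-targeting lentiviral control shRNA (shCON). The other 2 libraries came from the same lines with an shRNA against DDX52, a DEAD-box RNA helicase gene, and they serve only to check that a difference between the lines is seen in a second, separate pair of libraries. All 4 groups were puromycin-selected stable transformants of the pLKO.1 vector grown in the same serum-containing medium, and each group is 1 library of 1 established line, so no group has a replicate. The genes compared were the 15727 of 60671 listed that reached at least 1 TPM in either control library. TPM is a transcript level scaled for gene length and for the total of its library, so levels of different genes in a library can be set side by side.

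22RV1 was derived from a xenograft that regrew after castration, and it keeps androgen responsiveness and a secretory, luminal character. PC3 was derived from a bone metastasis, and it is a textbook androgen-insensitive line. In the prostate, androgens together with the pioneer factor FOXA1 and the homeodomain factor HOXB13 drive secretory genes such as the kallikreins. NF-kappaB is the main inducible factor of inflammatory genes such as the interleukins and CXC chemokines.

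Levels are given in TPM as the shCON value and then the shDDX52 value of a line. A difference is the log2 ratio of 22RV1 over PC3 with 1 TPM added to each level, so positive values are higher in 22RV1. It understates the difference of genes with low levels. A gene is called different when the ratio is at least 2-fold. Such a difference is said to have held when it was also at least 2-fold in the same direction between the shDDX52 libraries of the lines. With 1 library per group there is no spread to test against, so no p-value or error is given, and TPM keeps no record of depth, so the counting error behind each value is unknown. The lines were deposited in separate tables, each library scaled to its own total. In such bulk samples, fewer cells that express a gene and less RNA of it per cell cannot be told apart.

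The control libraries differed widely. Of the 15727 genes, 3346 (21.3%) were at least 2-fold higher in 22RV1 and 3127 (19.9%) were at least 2-fold higher in PC3, while 9254 were within 2-fold. The median log2 ratio of all genes was 0.07. In the shDDX52 pair, 2332 of the 22RV1-higher genes (14.8% of all 15727) and 2336 of the PC3-higher genes (14.9% of all) held, which is 69.7% and 74.7% of those called. Only 43 and 31 were at least 2-fold in the opposite direction. The median absolute log2 ratio was 0.81 between the lines, against 0.21 between the shRNAs within 22RV1 and 0.24 within PC3. The targeted gene DDX52 was at 4.88 and 1.20 TPM in 22RV1 and at 9.20 and 2.07 TPM in PC3, so both shDDX52 libraries were lower than their shCON library. The libraries had 13504 to 13738 genes at 1 TPM or more, 8.10% to 12.99% of TPM in mitochondrially encoded genes and 0.087% to 3.13% in rRNA genes, the highest rRNA share being that of PC3 shDDX52. Of 98 protein-coding genes whose symbols begin with RPL or RPS and a digit, 2 were listed at 0 in each 22RV1 library and 4 in each PC3 library. Such symbols also cover genes that do not encode ribosomal proteins, such as the RPS6K kinases. Whether a listed 0 is true absence or a failed estimate was not tested.

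**Figure D1:**
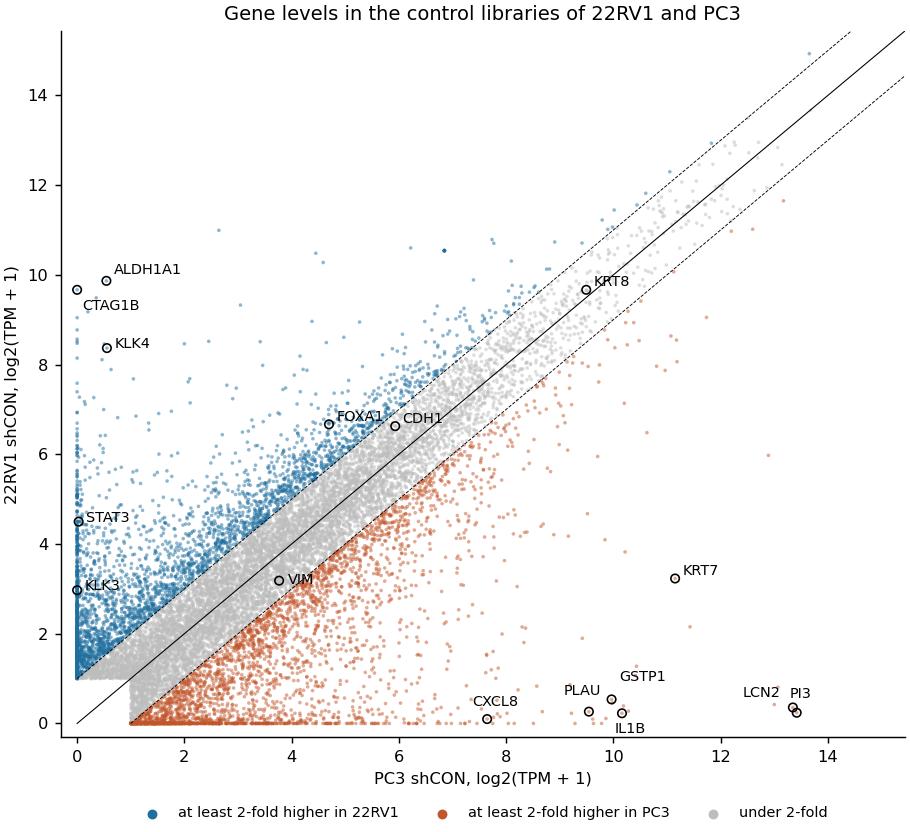
Levels of the genes compared in the control libraries, PC3 on the horizontal axis and 22RV1 on the vertical axis, both as log2(TPM + 1), with Y-linked genes and the X-inactivation transcripts left out. Dashed lines mark 2-fold, blue points are at least 2-fold higher in 22RV1 and orange points in PC3. KLK3 and STAT3 lie at or near 0 TPM in PC3, IL1B, PLAU and GSTP1 lie under 1 TPM in 22RV1, and VIM and CDH1 lie inside the 2-fold lines.

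The label of each line was checked against a marker, KLK3 for the luminal, androgen-responsive line and VIM for PC3. KLK3, which encodes prostate-specific antigen, was at 6.84 and 4.51 TPM in 22RV1 and was listed at 0 in each PC3 library, so it separated the lines as labelled. VIM, which encodes the mesenchymal intermediate filament vimentin, did not separate the control libraries. It was at 8.08 and 5.57 TPM in 22RV1 and at 12.6 and 66.7 TPM in PC3, with a log2 ratio of -0.58 in the shCON pair and of -3.36 in the shDDX52 pair. The PC3 control library is therefore described by its measured genes and not as a vimentin-high population.

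**Figure D2:**
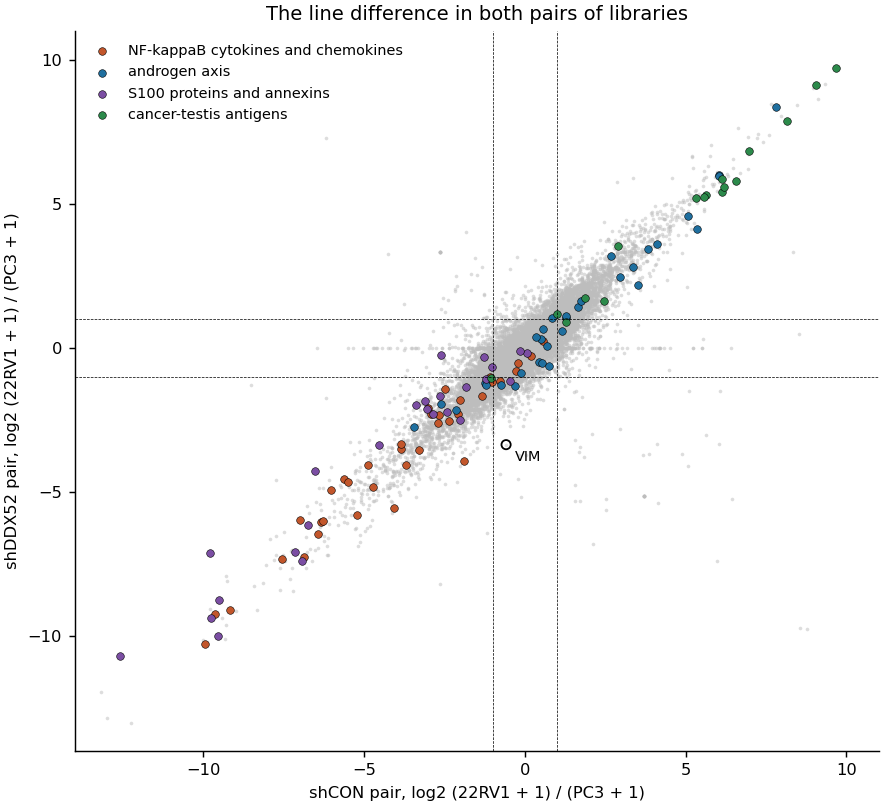
The log2 ratio of 22RV1 over PC3 in the shCON pair (horizontal axis) and in the shDDX52 pair (vertical axis), 1 grey point per gene, with 4 gene lists in colour and dashed lines at 2-fold. The pairs share no library, and genes of the NF-kappaB list lie at the lower left in both, while VIM lies at -0.58 on the horizontal axis and -3.36 on the vertical one.

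Genes of the androgen axis were more often higher in 22RV1 than in PC3. Among 40 listed genes of the axis, 16 were at least 2-fold higher in 22RV1 and 15 of those held, while 5 were higher in PC3 and all 5 held. Another 11 were within 2-fold and 8 were under 1 TPM in both control libraries. The median log2 ratio of the 32 members that passed the 1 TPM filter was 1.01, beside 0.07 over all genes. Here and for every list below, a gene can pass that filter by being high in a single line, so these counts describe the lists and are not evidence about them.

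The kallikrein proteases led the secreted targets. KLK4 was at 329 and 415 TPM in 22RV1 and at 0.47 and 0.27 TPM in PC3, with a log2 ratio of 7.81. KLK2 was at 32.6 and 23.1 TPM in 22RV1 and was listed at 0 in each PC3 library. KLK2 and KLK3 are close paralogues, and reads that fit both could be split between them. The membrane carboxypeptidase gene FOLH1, which encodes prostate-specific membrane antigen, was at 67.9 and 77.4 TPM in 22RV1 and at 0.05 and 0.26 TPM in PC3, with a log2 ratio of 6.04. FKBP5, the co-chaperone gene that is a standard readout of androgen activity, was at 107.8 and 45.7 TPM against 8.57 and 9.31 TPM, with a log2 ratio of 3.51. HPGD, the prostaglandin-degrading dehydrogenase, was at 20.1 and 11.1 TPM in 22RV1 and at 0.21 and 0 TPM in PC3. For these genes both 22RV1 libraries were above both PC3 libraries. Most of them were named because their difference held, so this follows from the choice, and the libraries of a line are not replicates.

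Not every gene of the axis was higher in 22RV1. TMPRSS2, the protease gene whose promoter is rearranged in many prostate cancers, was at 4.82 and 4.35 TPM in 22RV1 and at 2.94 and 2.44 TPM in PC3, with a log2 ratio of 0.56. The stress-responsive gene NDRG1 was lower in 22RV1, at 16.8 and 55.5 TPM against 192.8 and 376 TPM, with a log2 ratio of -3.44. SLC45A3, which encodes prostein, was at 5.39 and 5.92 TPM in 22RV1 and at 14.1 and 15 TPM in PC3, with a log2 ratio of -1.24. TIPARP and the fatty acyl-CoA ligase ACSL3 were also higher in PC3, with log2 ratios of -2.14 and -1.21, as was STEAP4, at 0 and 0.03 TPM against 5.09 and 2.99 TPM, and all 3 held.

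The 250 bases before the start of KLK3 are printed because that gene is the marker of 22RV1 here. The window is chr19:50854665-50854914, plus strand, from RefSeq on GRCh38.p14, and the capitals mark AGAACA, the hexamer that androgen response elements are built on, which begins 170 bases before the start.
KLK3: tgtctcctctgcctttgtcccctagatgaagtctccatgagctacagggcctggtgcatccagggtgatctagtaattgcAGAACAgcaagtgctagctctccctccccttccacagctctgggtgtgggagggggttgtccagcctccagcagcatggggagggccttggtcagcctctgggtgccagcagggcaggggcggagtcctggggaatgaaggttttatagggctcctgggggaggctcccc
On either strand AGAACA was found in 4 of the 26 promoter windows matched for the axis (15.4%), each window running from 250 bases before to 50 bases after a start. It was found in 14.9% of 27305 windows of all genes, so the share in the axis was close to that of promoters at large. The hexamer is a description of letters and not a bound site.

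The kallikrein genes lie side by side on chromosome 19, and neighbouring stretches of the row were high in different lines. From KLK1 to KLK4 a run of 5 consecutive genes (KLK1, KLK15, KLK3, KLK2 and KLK4) was at least 2-fold higher in 22RV1 in both pairs. KLK1, tissue kallikrein, was at 51.3 and 44.8 TPM in 22RV1 and at 0.77 and 0.38 TPM in PC3. The very next gene, KLK5, a protease of stratified epithelium, was listed at 0 in both 22RV1 libraries and was at 262 and 185 TPM in PC3. KLK6 was at 0.20 and 0 TPM in 22RV1 and at 408 and 310 TPM in PC3. KLK8 was listed at 0 in both 22RV1 libraries and was at 15.4 and 7.04 TPM in PC3. The direction thus switched between the neighbours KLK4 and KLK5. KLK7, within the PC3-higher stretch, was at 0.47 and 0.62 TPM in PC3, and the genes from KLK10 to KLK14 were under 1 TPM in every library.

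**Figure D3:**
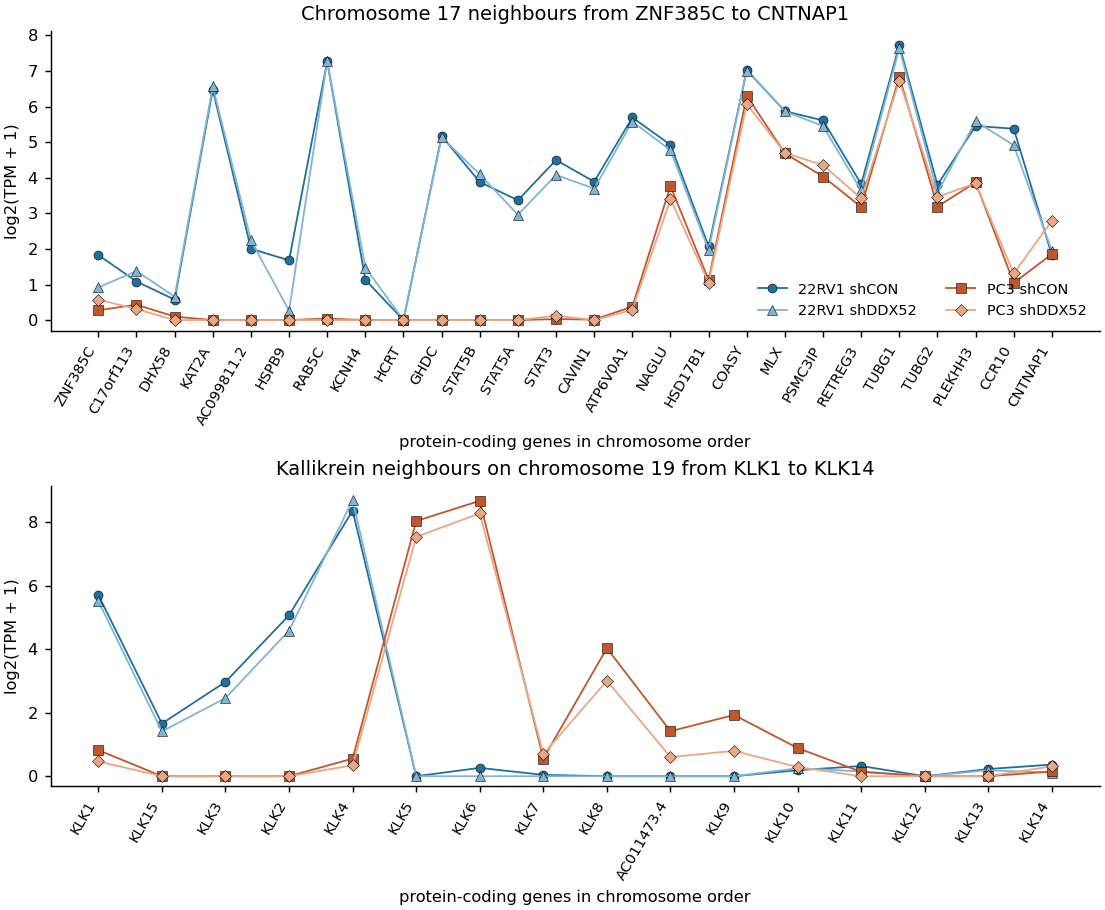
Levels as log2(TPM + 1) of protein-coding genes in chromosome order, upper panel from ZNF385C to CNTNAP1 on chromosome 17 and lower panel from KLK1 to KLK14 on chromosome 19, 1 line per library. In the upper panel both PC3 libraries lie at or under 0.30 TPM from KAT2A to ATP6V0A1, and in the lower panel the 22RV1 and PC3 lines cross between KLK4 and KLK5.

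Among 30 listed factors of prostate lineage, 7 were higher in 22RV1 (6 held), 10 were higher in PC3 (7 held), 8 were within 2-fold and 5 were under 1 TPM in both. With 25 members past the 1 TPM filter, these counts stand beside 21.3% and 19.9% of all genes. The factors that cooperate in androgen-driven transcription were higher in 22RV1 but were not absent from PC3. FOXA1 was at 100.7 and 110.3 TPM in 22RV1 and at 24.9 and 15.2 TPM in PC3, with a log2 ratio of 1.97. HOXB13 was at 89.9 and 104.7 TPM against 39.9 and 34.1 TPM, with a log2 ratio of 1.15. GATA2, a zinc-finger factor, was at 116 and 169 TPM against 11.1 and 9.18 TPM, with a log2 ratio of 3.28. TBX3 and SIM2 were also higher in 22RV1, with log2 ratios of 2.63 and 2.22. In PC3 the orphan receptor gene NR2F2 (2.39 and 1.59 TPM against 20.4 and 20.3 TPM), the ETS factor genes ETV4 and EHF and the progenitor factor SOX9 were higher, with log2 ratios of -2.66, -2.19, -2.07 and -1.56. GRHL2 and OVOL2, which keep epithelial identity, were within 2-fold, GRHL2 being at 13.1 and 14.2 TPM in 22RV1 and at 12.9 and 15.4 TPM in PC3.

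Of 37 listed nuclear receptors, 8 were higher in 22RV1 (4 held) and 5 in PC3 (3 held), with 14 within 2-fold and 10 under 1 TPM in both. With 27 members past the 1 TPM filter, the counts that held were not far from the 14.8% and 14.9% of all genes. PPARG, the adipogenic lipid-sensing receptor, was at 2.79 and 1.87 TPM in 22RV1 and at 79.7 and 47.3 TPM in PC3, with a log2 ratio of -4.41. The glucocorticoid receptor gene NR3C1 was low in all 4 libraries, at 2.76 and 1.60 TPM in 22RV1 and at 2.56 and 2.04 TPM in PC3. The vitamin D receptor gene VDR was higher in PC3 (-1.42) and the thyroid hormone receptor gene THRA in 22RV1 (1.77), and both held.

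Both lines were epithelial by their keratins, but PC3 carried many more keratin transcripts. KRT8, the type II keratin of simple epithelium, did not differ by 2-fold, at 812 and 803 TPM in 22RV1 and at 720.0 and 960 TPM in PC3. The list named simple epithelial keratins has 9 genes and also holds the hair keratins KRT81 and KRT86. Of the 9, 7 were higher in PC3 (6 held) and none in 22RV1. KRT18 had a smaller log2 ratio of -1.29, which held. KRT7 was at 8.39 and 19.9 TPM in 22RV1 and at 2273 and 2083 TPM in PC3, with a log2 ratio of -7.92. KRT81, a hair keratin, was at 0.75 and 0.12 TPM against 8589 and 9338 TPM, among the highest levels of any gene in PC3. KRT81 and its near copy KRT86 (39.0 and 27.5 TPM in PC3) may share reads. KRT19 was at 489 and 567 TPM against 1331 and 1064 TPM, a difference that fell under 2-fold in the shDDX52 pair (-0.91).

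Basal epithelial markers were higher in PC3, although the factor that defines basal cells was not. Of 25 listed, 14 were higher in PC3 and all 14 held, none was higher in 22RV1, 1 was within 2-fold and 10 were under 1 TPM in both. The hemidesmosome integrin ITGB4 was at 0.78 and 1.23 TPM in 22RV1 and at 379 and 325 TPM in PC3, with a log2 ratio of -7.74. LAMB3 and LAMA3, which encode laminin chains of the basement membrane, had log2 ratios of -6.15 and -5.36. CD44, the hyaluronan receptor, was at 17.1 and 7.01 TPM against 571 and 664 TPM, with a log2 ratio of -4.99. The basal master regulator TP63 (0 and 0 TPM against 0.30 and 0.22 TPM) and the basal keratin KRT5 (0 and 0 TPM against 0.27 and 0.40 TPM) were under 1 TPM in every library.

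Of 45 listed junction genes, 23 were within 2-fold, 15 were higher in PC3 (13 held), 4 were higher in 22RV1 (all 4 held) and 3 were under 1 TPM in both, beside 9254 of 15727 within 2-fold and 19.9% higher in PC3 among all genes. CDH1, which encodes E-cadherin, was at 97.9 and 112 TPM in 22RV1 and at 60.05 and 75.1 TPM in PC3, with a log2 ratio of 0.70. CTNNA1, which encodes alpha-catenin and links E-cadherin to actin, stood apart from its partners. It was at 185 and 160.3 TPM in 22RV1 and at 5.93 and 9.59 TPM in PC3, with a log2 ratio of 4.75. The partner genes CTNNB1 and CTNND1 had log2 ratios of 0.21 and 1.35. EPCAM was at 24.0 and 31.6 TPM against 287 and 231 TPM (-3.52), and RAB25, a GTPase of epithelial recycling endosomes, was at 0.19 and 0.13 TPM against 98.3 and 84.5 TPM (-6.38).

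Mesenchymal markers were more often higher in PC3. Of 40 listed genes, 22 were higher in PC3 (20 held) and 4 in 22RV1 (2 held), with 8 within 2-fold and 6 under 1 TPM in both, and the median log2 ratio of the 34 that passed was -1.52. THBS1, which encodes thrombospondin, was at 0.25 and 0.35 TPM in 22RV1 and at 185 and 473 TPM in PC3, with a log2 ratio of -7.22. The receptor tyrosine kinase gene AXL was at 0.13 and 0.05 TPM against 32.6 and 79.3 TPM (-4.89), and the collagen cross-linking enzyme LOXL2 was at 1.62 and 1.32 TPM against 120.2 and 156 TPM (-5.53). ZEB1 and ZEB2, repressors of E-cadherin, were at or under 0.21 TPM in all 4 libraries. The 22RV1-higher members that held were CAVIN1, a caveolar coat gene, and TWIST1. TWIST1 was at 8.02 and 6.63 TPM against 0.59 and 2.54 TPM (2.50). SNAI2 was at 12.6 and 7.12 TPM against 4.22 and 4.84 TPM (1.38), which fell under 2-fold in the shDDX52 pair. The list's median in the shDDX52 pair was -2.46 for these genes, with higher levels of VIM, THBS1 and AXL in PC3 shDDX52 than in PC3 shCON.

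**Figure D4:**
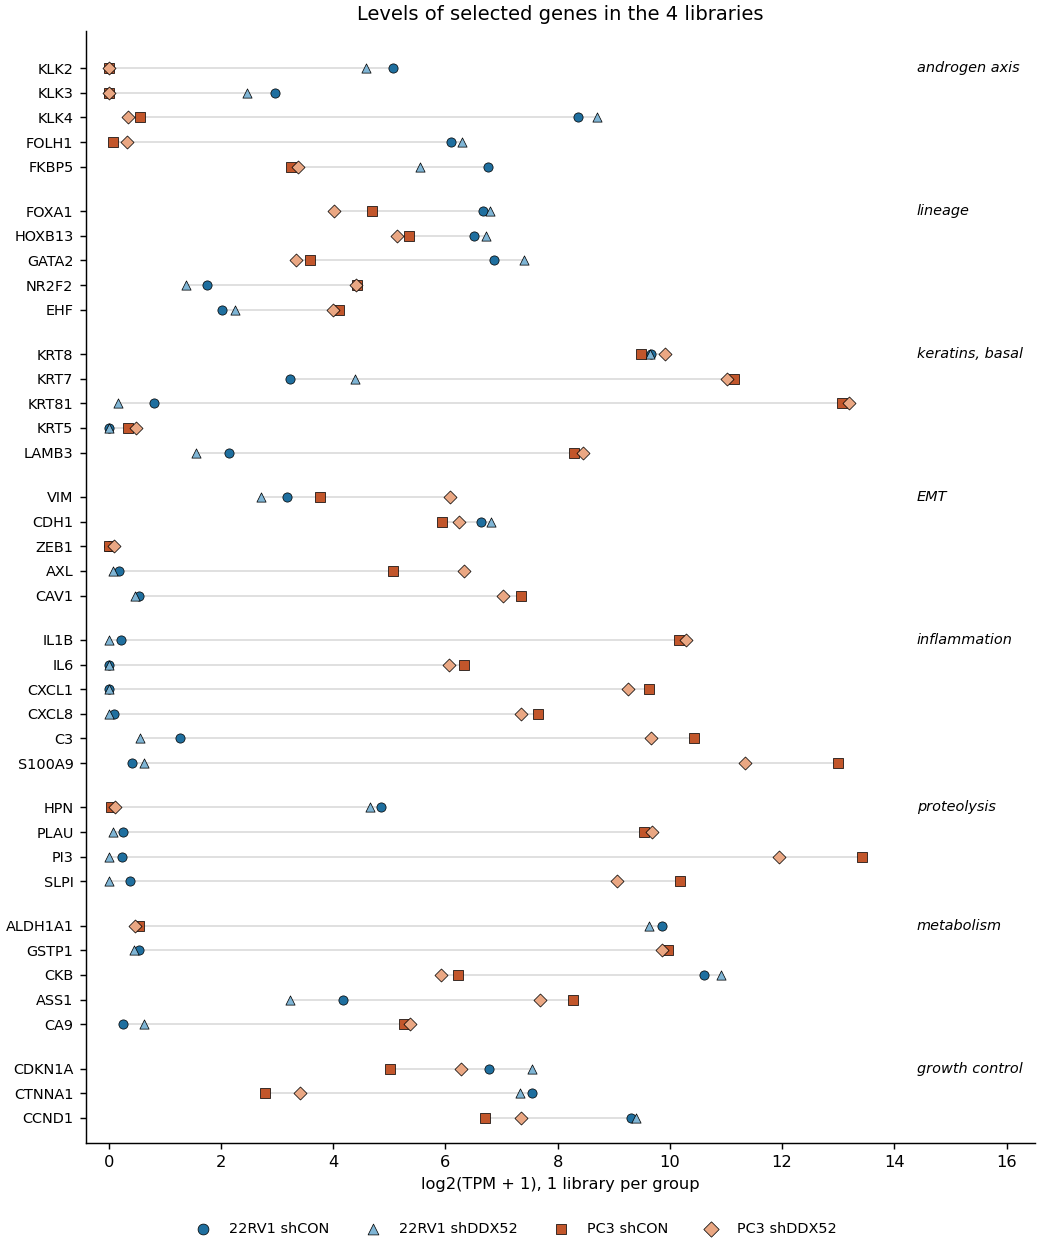
Levels of selected genes in the 4 libraries as log2(TPM + 1), grouped by role, with 22RV1 in blue and PC3 in orange and 1 point per library. Both points of a line lie close together for most genes, and the blue and orange points overlap for KRT8 and ZEB1.

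Genes for attachment to the matrix and for its remodelling were higher in PC3. Of 50 listed integrins and matrix genes, 32 were higher in PC3 (30 held) and 3 in 22RV1 (2 held), with 6 within 2-fold and 9 under 1 TPM in both. ITGB1, the shared integrin beta chain, was at 26.1 and 12.6 TPM in 22RV1 and at 282 and 228 TPM in PC3 (-3.38), and ITGA3 was at 17.5 and 18.8 TPM against 473 and 461 TPM (-4.68). The leukocyte integrin chain ITGB2 was at 0.25 and 0.61 TPM against 103.5 and 68.1 TPM (-6.39). ITGB5, which pairs with the alpha V chain, ran the other way, at 126.9 and 103.7 TPM against 24.8 and 32.7 TPM (2.31).

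Of 44 listed proteases and inhibitors, 20 were higher in PC3 (19 held) and 3 in 22RV1 (1 held), with 10 within 2-fold and 11 under 1 TPM in both. PI3, which encodes the elastase inhibitor elafin, had the largest difference in the shCON pair, at 0.18 and 0 TPM in 22RV1 and at 10951 and 3942 TPM in PC3 (-13.2). In the shDDX52 pair its ratio of -11.9 was exceeded by those of KRT81 (-13.0) and LCN2 (-12.9). The urokinase gene PLAU was at 0.20 and 0.05 TPM against 745 and 824 TPM (-9.28), and its receptor PLAUR was at 3.67 and 4.75 TPM against 114 and 126 TPM (-4.62). HPN, which encodes the membrane protease hepsin, was higher in 22RV1, at 27.9 and 24.4 TPM against 0.03 and 0.08 TPM (4.81). The ligand and receptor of the plasminogen system were thus both far higher in PC3, and hepsin was nearly absent there.

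Actin, caveolar and YAP target genes were also higher in PC3, with 23 of 44 listed higher in PC3 (all 23 held), 1 higher in 22RV1, 19 within 2-fold and 1 under 1 TPM in both. The YAP targets CCN1 and CCN2 were at 2.04 and 2.13 TPM and at 0.02 and 0.05 TPM in 22RV1, and at 215 and 455 TPM and at 18.2 and 30.0 TPM in PC3. CAV1, the caveolar coat protein, was at 0.45 and 0.39 TPM in 22RV1 and at 162 and 130.2 TPM in PC3 (-6.81). Its partner CAVIN1, needed to form caveolae, showed the reverse, at 13.8 and 12.0 TPM in 22RV1 and at 0.01 and 0 TPM in PC3. The housekeeping actin gene ACTB was within 2-fold, at 3295 and 3257 TPM against 4454 and 5058 TPM.

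Most of the inflammatory genes were higher in PC3. Of 45 listed NF-kappaB cytokines, chemokines and regulators, 33 were at least 2-fold higher in PC3 and all 33 held, none was higher in 22RV1, 5 were within 2-fold and 7 were under 1 TPM in both. The median log2 ratio of the 38 that passed was -3.49. IL1B was at 0.17 and 0 TPM in 22RV1 and at 1143 and 1252 TPM in PC3, with a log2 ratio of -9.93. CXCL1, a neutrophil chemokine, was listed at 0 in both 22RV1 libraries and was at 791 and 609 TPM in PC3. CXCL8 was at 0.07 and 0 TPM against 199 and 163 TPM (-7.55). IL6 and CSF3 were listed at 0 in both 22RV1 libraries, and in PC3 they were at 79.9 and 66.0 TPM and at 125 and 61.6 TPM. The complement gene C3 was at 1.42 and 0.48 TPM against 1379 and 811 TPM (-9.16).

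The NF-kappaB subunit genes RELA and NFKB2 were within 2-fold. RELA, the main activating subunit, was at 62.3 and 64.5 TPM in 22RV1 and at 72.1 and 93.8 TPM in PC3 (-0.21), and NFKB2 was at 65.4 and 61.5 TPM against 44.0 and 52.4 TPM (0.56). NFKB1 and RELB were higher in PC3, NFKB1 at 8.19 and 7.98 TPM against 17.7 and 19.3 TPM (-1.03) and RELB at 1.11 and 2.50 TPM against 12.9 and 20.2 TPM (-2.72). The feedback inhibitors NFKBIA (-2.49), TNFAIP3 (-3.69) and TNIP1 (-2.66) were higher in PC3 in both pairs.

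Several CXC chemokine genes with large differences lie together on chromosome 4, and the sequence before their starts is shown because a kappaB motif recurs there. From CXCL8 to BTC, 10 consecutive expressed genes were at least 2-fold higher in PC3 in both pairs, namely CXCL8, CXCL6, CXCL1, CXCL5, CXCL3, CXCL2, MTHFD2L, EPGN, AREG and BTC, with a median log2 ratio of -5.56. The sequences are from RefSeq on GRCh38.p14, read along the gene's strand, and the capitals mark GGANTTTCC, in which N is any base. The stretches of 29 bases are chr4:73740468-73740496 (plus strand), chr4:73836579-73836607 (plus), chr4:73869305-73869333 (plus), chr4:73998749-73998777 (minus), chr4:74038749-74038777 (minus) and chr4:74099254-74099282 (minus), in the order of the lines.
CXCL8: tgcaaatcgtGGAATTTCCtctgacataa
CXCL6: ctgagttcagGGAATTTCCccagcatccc
CXCL1: tggaactccgGGAATTTCCctggcccggg
CXCL5: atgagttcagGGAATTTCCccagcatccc
CXCL3: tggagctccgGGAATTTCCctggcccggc
CXCL2: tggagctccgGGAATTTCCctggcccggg
The motif begins 91, 89, 78, 90, 78 and 77 bases before the start, in the same order. The stretches are not independent, since the genes are duplicates of each other. CXCL1 and CXCL2 share 28 of 29 bases, CXCL5 and CXCL6 share 28, and CXCL1 and CXCL8 share 17.

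The wider promoters of CXCL8, CXCL1 and IL6 show the motif in its setting, each as the 250 bases before the start, at chr4:73740319-73740568, chr4:73869143-73869392 and chr7:22726950-22727199, all on the plus strand. The 3 were taken because they are among the best known NF-kappaB targets and were at or near 0 TPM in 22RV1.
CXCL8: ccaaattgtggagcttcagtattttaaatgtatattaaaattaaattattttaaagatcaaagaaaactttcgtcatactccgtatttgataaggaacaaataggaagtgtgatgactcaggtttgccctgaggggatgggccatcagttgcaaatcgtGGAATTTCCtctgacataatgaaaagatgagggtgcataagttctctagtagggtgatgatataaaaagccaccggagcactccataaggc
CXCL1: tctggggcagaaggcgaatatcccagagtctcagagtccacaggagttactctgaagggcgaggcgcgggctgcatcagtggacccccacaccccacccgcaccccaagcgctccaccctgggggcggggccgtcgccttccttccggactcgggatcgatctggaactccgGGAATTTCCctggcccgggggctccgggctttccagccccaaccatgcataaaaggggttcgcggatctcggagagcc
IL6: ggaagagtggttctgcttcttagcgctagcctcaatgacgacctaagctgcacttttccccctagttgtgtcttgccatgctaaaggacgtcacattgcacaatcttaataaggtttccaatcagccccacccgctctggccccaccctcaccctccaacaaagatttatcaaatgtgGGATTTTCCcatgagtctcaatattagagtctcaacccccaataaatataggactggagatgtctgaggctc
On either strand the motif was found in 17 of the 35 promoter windows matched for the NF-kappaB list (48.6%) and in 449 of 27305 windows of all genes (1.64%). The list was made of known NF-kappaB targets, so this share follows in part from how it was chosen. Of the 17 genes with the motif 15 were higher in PC3 in both pairs, and of the 18 windows without it 11 were.

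Of 28 AP-1 and immediate early genes, 12 were higher in PC3 and 2 in 22RV1, and all 14 held, with 10 within 2-fold and 4 under 1 TPM in both. FOSL1, the Fos-family subunit of AP-1, was at 0.43 and 0.56 TPM in 22RV1 and at 226 and 408 TPM in PC3 (-7.31). IER3 was at 2.73 and 2.39 TPM against 684 and 499 TPM (-7.52). The MAP kinase phosphatases DUSP4 and DUSP5 had log2 ratios of -3.27 and -4.28. FOS was near 1 TPM or under in the control libraries, at 0.84 and 1.44 TPM against 0.57 and 0.44 TPM. BATF3 (3.44) and the immediate early factor EGR1 (1.55) were higher in 22RV1.

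Interferon-response and antigen-presentation genes were higher in PC3. Of 50 listed, 34 were higher in PC3 (33 held), 1 was higher in 22RV1 and did not hold (BST2), 9 were within 2-fold and 6 were under 1 TPM in both. B2M, the common light chain of MHC class I, was at 248 and 157 TPM against 738 and 703 TPM (-1.57). The immunoproteasome subunit PSMB8 was at 0.07 and 0 TPM against 80.7 and 93.1 TPM (-6.26). STING1, which encodes the adaptor of cytosolic DNA sensing, was listed at 0 in both 22RV1 libraries and was at 10.7 and 11.4 TPM in PC3, and the sensor CGAS was at 0 and 0.09 TPM against 6.78 and 9.83 TPM. The immune checkpoint ligand CD274 was listed at 0 in both 22RV1 libraries and was at 3.41 and 7.24 TPM in PC3.

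S100 proteins, small calcium-binding proteins, made up the longest run of neighbours found. From S100A10 to S100A13 on chromosome 1, 14 consecutive expressed genes were at least 2-fold higher in PC3 in both pairs, with a median log2 ratio of -3.95 in the shCON pair and -2.82 in the shDDX52 pair. Of 28 listed S100 and annexin genes, 22 were higher in PC3 (19 held), none in 22RV1, 3 were within 2-fold and 3 were under 1 TPM in both. S100A9, a subunit of calprotectin, was at 0.34 and 0.55 TPM in 22RV1 and at 8195 and 2581 TPM in PC3 (-12.6). Its partner S100A8 was listed at 0 in both 22RV1 libraries and was at 878 and 139 TPM in PC3. ANXA2, which encodes the annexin that binds S100A10, was at 0.37 and 0 TPM against 1010 and 1040 TPM (-9.53), while S100A10 itself was at 249 and 315 TPM against 1789 and 1540 TPM (-2.84). ANXA2 has processed pseudogenes that can take its reads. The summed level of the list was 25049 TPM in PC3 shCON and 13248 TPM in PC3 shDDX52, against 1145 and 1103 TPM in 22RV1.

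**Figure D5:**
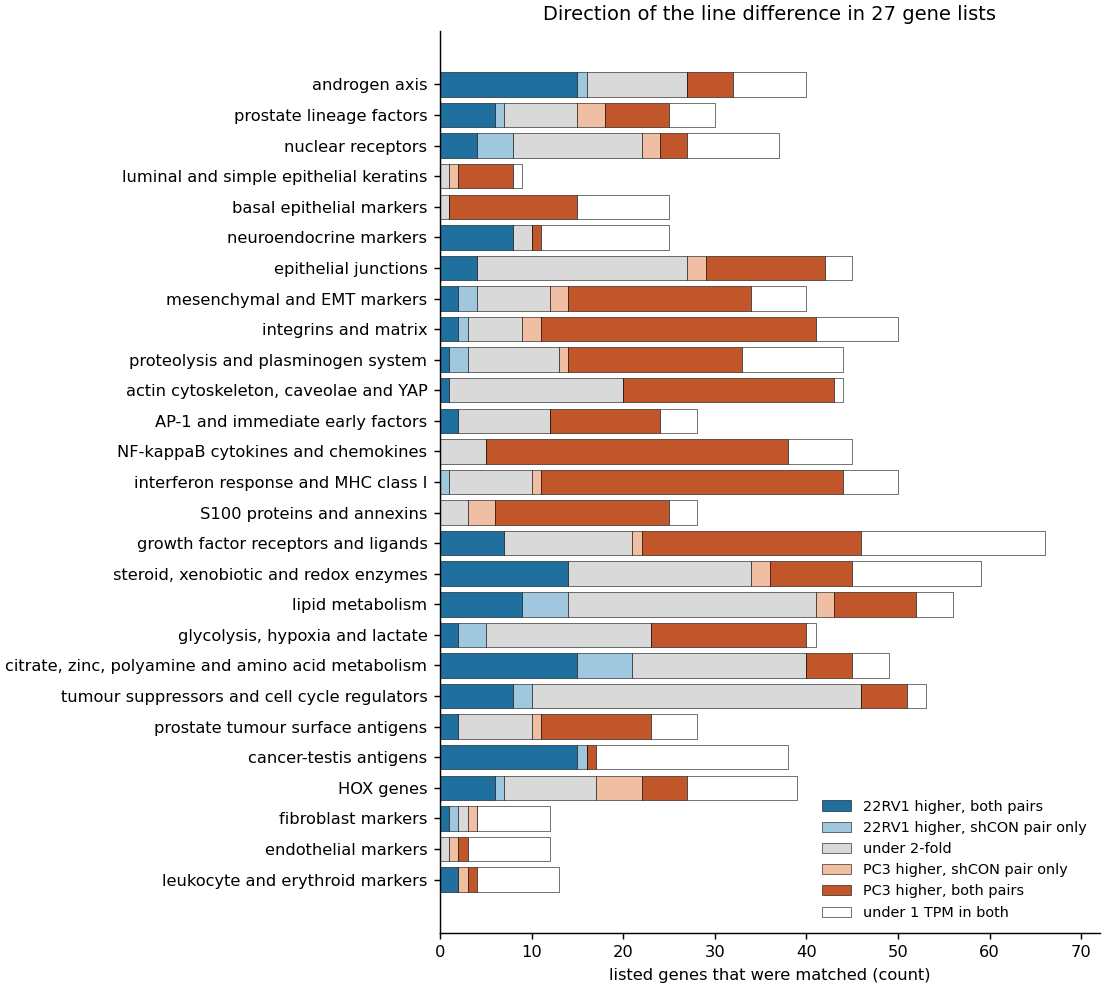
Counts of matched genes in 27 lists (horizontal axis), split by direction of the line difference. Dark blue and dark orange are at least 2-fold in both pairs, pale colours in the shCON pair only, grey is within 2-fold and white is under 1 TPM in both control libraries. The NF-kappaB and basal lists show no blue, and the cancer-testis antigens show blue with a single PC3-higher gene.

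Of 66 growth factor genes, 25 were higher in PC3 (24 held) and 7 in 22RV1 (all 7 held), with 14 within 2-fold and 20 under 1 TPM in both. The EGF-family ligands AREG (0.15 and 0.23 TPM against 44.7 and 14.7 TPM) and HBEGF (3.41 and 2.16 TPM against 81.5 and 48.3 TPM) were higher in PC3, while their receptor EGFR was within 2-fold, at 35.8 and 26.95 TPM against 29.1 and 32.0 TPM. The hepatocyte growth factor receptor MET was at 0.35 and 1.38 TPM in 22RV1 and at 11.8 and 22.7 TPM in PC3 (-3.24). Its ligand HGF was at 9.41 and 20.2 TPM in 22RV1 and was listed at 0 in each PC3 library, so the ligand and the receptor were high in different lines. TGFBR2, the receptor for TGF-beta, was at 0.39 and 0.09 TPM against 27.4 and 19.6 TPM (-4.35). FGFR3 (3.18), FGFR1 (2.64), EPHA3 (3.61) and the insulin-like growth factor binding protein IGFBP2 (5.20) were higher in 22RV1.

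The metabolic lists differed in their counts by direction. Among all genes compared, 21.3% were at least 2-fold higher in 22RV1 and 19.9% in PC3. For steroid, xenobiotic and redox enzymes, 14 of 60 listed were higher in 22RV1 (all 14 held) and 11 in PC3 (9 held), with 20 within 2-fold, 14 under 1 TPM in both and 1 not matched. The retinaldehyde dehydrogenases were exchanged between the lines. ALDH1A1 was at 932 and 792 TPM in 22RV1 and at 0.46 and 0.38 TPM in PC3 (9.32), while ALDH1A3 was at 0.82 and 0.32 TPM against 584 and 726 TPM (-8.33). GSTP1, the glutathione transferase whose promoter is methylated in most prostate cancers, was at 0.45 and 0.37 TPM in 22RV1 and at 999.6 and 927 TPM in PC3 (-9.43). The aldo-keto reductase AKR1C2 was at 84.7 and 62.8 TPM against 0.44 and 0.22 TPM (5.90), and AKR1C3, which makes testosterone, was at 11.3 and 13.3 TPM against 0.80 and 0.62 TPM (2.78). The AKR1C genes are near-identical and may share reads. NNMT, which methylates nicotinamide, was higher in PC3 (-6.80).

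Of 56 lipid genes, 14 were higher in 22RV1 (9 held) and 11 in PC3 (9 held), with 27 within 2-fold and 4 under 1 TPM in both. With 52 members past the 1 TPM filter, these counts were not far from the 21.3% and 19.9% of all genes. The 22RV1-higher genes included enzymes of sterol and fatty acid synthesis. FDFT1, squalene synthase, was at 326 and 310.2 TPM in 22RV1 and at 57.9 and 60.8 TPM in PC3 (2.47) and FASN was at 292 and 350 TPM against 100.3 and 92.1 TPM (1.53). The apolipoprotein APOE (-2.29) was higher in PC3.

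Glycolysis and hypoxia genes had 17 of 41 listed higher in PC3 (all 17 held) and 5 in 22RV1 (2 held), with 18 within 2-fold and 1 under 1 TPM in both. CA9, a carbonic anhydrase induced in hypoxia, was at 0.19 and 0.55 TPM in 22RV1 and at 37.4 and 40.3 TPM in PC3 (-5.01). HIF1A was at 11.8 and 8.25 TPM against 63.4 and 46.3 TPM (-2.34). LDHA, which makes lactate, was at 369 and 287 TPM against 1427 and 1364 TPM (-1.95), and the lactate exporter SLC16A3 was at 48.0 and 33.3 TPM against 454 and 329 TPM (-3.21). The core glycolytic genes differed gene by gene. GAPDH (0.54), ENO1 (0.01) and ALDOA (0.38) were within 2-fold, while PGK1 was higher in PC3 (-1.71), which held. TPI1 (1.08) and PFKM (1.20) were higher in 22RV1 in the shCON pair and fell under 2-fold in the shDDX52 pair.

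Citrate, zinc, polyamine and amino acid genes were more often higher in 22RV1, with 21 of 49 listed (15 held) against 5 higher in PC3 (all 5 held), 19 within 2-fold and 4 under 1 TPM in both. The creatine kinases stood out. CKB was at 1552 and 1917 TPM in 22RV1 and at 73.6 and 59.3 TPM in PC3 (4.38), and the mitochondrial forms CKMT1A and CKMT1B, which are copies that share reads, had log2 ratios of 3.61 and 3.84. Enzymes of serine, proline and asparagine synthesis were higher in 22RV1, among them PHGDH (1.96), PSAT1 (2.52), PYCR1 (1.80) and ASNS (2.89), as was citrate synthase CS at 550.5 and 404 TPM against 149 and 174 TPM (1.88). ASS1, which makes argininosuccinate, was higher in PC3, at 17.03 and 8.39 TPM against 307 and 205 TPM (-4.09). The metallothioneins differed gene by gene. MT1E and MT1G were at 121 and 107 TPM and at 120.7 and 73.8 TPM in 22RV1 and were listed at 0 in each PC3 library, while MT2A was at 529.7 and 356 TPM against 3411 and 8356 TPM (-2.68).

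Among 53 tumour suppressors and cell cycle regulators, 36 were within 2-fold, 10 were higher in 22RV1 (8 held), 5 were higher in PC3 (all 5 held) and 2 were under 1 TPM in both. With 51 members past the 1 TPM filter, the 22RV1 count was close to the 21.3% of all genes. The PC3 count was below the 19.9% of all genes. The CDK inhibitor gene CDKN1A was at 109 and 186 TPM in 22RV1 and at 31.2 and 76.3 TPM in PC3 (1.77). Cyclin D1 (CCND1) was at 631 and 670.1 TPM against 104 and 163 TPM (2.59) and the related inhibitor CDKN1B at 53.1 and 50.3 TPM against 9.04 and 10.3 TPM (2.43). MYC (-0.19) and RB1 (0.32) were within 2-fold.

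The cancer-testis antigens, germ-cell genes that tumours can switch on, were either low in both lines or, with 1 exception, higher in 22RV1. Of 38 listed, 16 were higher in 22RV1 (15 held), 1 was higher in PC3 (PRAME, which held) and 21 were under 1 TPM in both, of which 12 were listed at 0 in both control libraries. The 22RV1-higher members include MAGED1 and MAGED2, which were not low in PC3, at 66.8 and 62.7 TPM and at 39.3 and 49.3 TPM. Their log2 ratios were 1.01 and 1.28, and MAGED2 did not hold. CTAG1B, which encodes NY-ESO-1, was at 812 and 1003 TPM in 22RV1 and at 0 and 0.18 TPM in PC3. MAGEA4 was at 282 and 237 TPM in 22RV1 and was listed at 0 in each PC3 library. On the X chromosome, 8 consecutive expressed genes from GABRA3 to MAGEA6 were higher in 22RV1 in both pairs, with a median log2 ratio of 6.08. Reads of CTAG1A and CTAG1B, of the MAGEA2, MAGEA3, MAGEA6 and MAGEA12 group, of the SSX2 copies and of the XAGE1 copies cannot be told apart with confidence, so the values of single copies are uncertain.

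Of 25 neuroendocrine markers, 8 were higher in 22RV1 (all 8 held), 1 in PC3 (which held), 2 were within 2-fold and 14 were under 1 TPM in both. The synaptic vesicle protein SYP was at 19.7 and 35.6 TPM in 22RV1 and at 0.33 and 0.40 TPM in PC3 (3.96). The neural splicing factor SRRM4 was at 14.6 and 12.1 TPM in 22RV1 and was listed at 0 in each PC3 library, and DDC, which makes dopamine and serotonin, was at 24.4 and 24.8 TPM against 0.07 and 0 TPM (4.57). The defining granule protein CHGA was at or under 0.16 TPM in all 4 libraries. SCG5 was the PC3-higher member, at 0.09 and 0.41 TPM against 28.2 and 88.2 TPM (-4.74).

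Of 28 surface antigens studied in prostate tumours, 13 were higher in PC3 (12 held) and 2 in 22RV1 (both held), with 8 within 2-fold and 5 under 1 TPM in both. The metalloreductase gene STEAP1 was within 2-fold, at 53.3 and 24.1 TPM against 50.5 and 25.1 TPM. Of 39 HOX genes, 7 were higher in 22RV1 (6 held), 10 in PC3 (5 held), 10 were within 2-fold and 12 were under 1 TPM in both. With 27 HOX genes past the 1 TPM filter, the 22RV1 count was not far from the 21.3% of all genes. For PC3 the share of all genes was 19.9%, and 14.9% held. HOXA9 (-2.98) and HOXA11 (-3.03) were higher in PC3 and HOXC12 (3.34) and HOXC9 (2.55) in 22RV1.

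Some blocks of neighbouring genes differed together. A run was at least 4 consecutive expressed protein-coding genes past 2-fold in the same direction in both pairs. By this rule 34 runs of 179 genes were higher in 22RV1 and 56 runs of 297 genes in PC3. Of 12859 nuclear protein-coding genes that passed the filter, 1821 and 1959 were past 2-fold in these directions in both pairs. Several runs are families of related genes, such as the S100, keratin, CXC chemokine and MAGEA genes. The number of runs that gene order alone would give was not tested. On chromosome 17 the 9 genes from RAB5C to NAGLU formed a 22RV1-higher run with a median log2 ratio of 3.88. The low stretch in PC3 was wider than the run. Of the 12 protein-coding genes from KAT2A to ATP6V0A1, 8 were listed at 0 in each PC3 library and none exceeded 0.30 TPM there, while 11 had at least 1 TPM in 22RV1 shCON. STAT3, the transducer of IL6 signals, was at 21.6 and 15.9 TPM in 22RV1 and at 0.02 and 0.09 TPM in PC3. STAT5B and STAT5A were at 13.7 and 16.1 TPM and at 9.32 and 6.78 TPM in 22RV1 and were listed at 0 in each PC3 library. KAT2A, an acetyltransferase of histones, was at 88.0 and 93.9 TPM in 22RV1 and listed at 0 in each PC3 library, and the endosomal GTPase RAB5C was at 154 and 154 TPM against 0.03 and 0 TPM. The 3 genes just before KAT2A, ZNF385C, C17orf113 and DHX58, were also under 0.5 TPM in both PC3 libraries, but they were low in 22RV1 too, at 0.49 to 2.55 TPM in its shCON library. Beyond them NKIRAS2 was at 18.1 and 26.7 TPM in PC3. On the other side NAGLU, next to ATP6V0A1, was at 12.6 and 9.55 TPM in PC3, and COASY was at 78.0 and 66.1 TPM. Gene copy number was not measured, and its part in this block was not tested. PC3 thus had high IL6 and no more than 0.09 TPM of STAT3.

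Wider stretches showed the same pattern. Over windows of 60 consecutive expressed protein-coding genes, a size chosen after the data were seen, the lowest median of any chromosome was on chromosome 14 from MAP4K5 to WDR89, at -1.84 in the shCON pair and -2.03 in the shDDX52 pair. In that window 47 genes were higher in PC3, all 47 held, and 1 was higher in 22RV1. HIF1A, given above among the hypoxia genes, lies in that window. The highest median was on chromosome 4 from ZNF595 to AC093323.1, at 1.69 and 1.60, with 45 genes higher in 22RV1 (38 held) and 1 in PC3. Among whole chromosomes, the median log2 ratio was highest on chromosome 16 (0.49 in the shCON pair and 0.54 in the shDDX52 pair), chromosome 9 (0.44 and 0.34) and chromosome 22 (0.40 and 0.37). It was lowest on chromosome 21 (-0.50 and -0.70), chromosome 20 (-0.44 and -0.45) and chromosome 2 (-0.36 and -0.47). On chromosome 16, 181 of 626 genes were higher in 22RV1 and 66 in PC3, while on chromosome 20 it was 34 and 105 of 362.

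Among the 12859 nuclear protein-coding genes that passed the filter, listed or not, some were on in one line and off in the other. With on as at least 10 TPM in both libraries of a line and off as under 0.5 TPM in both libraries of the other, 136 protein-coding genes were on in 22RV1 alone and 165 in PC3 alone. The 15 largest differences in 22RV1 included CTAG1B, ALDH1A1, the muscle-type phosphoglycerate mutase PGAM2 (717 and 737 TPM against 0.28 and 0.85 TPM), the small heat shock protein HSPB6 (578 and 526 TPM against 0.15 and 0 TPM) and the nitric oxide synthase NOS3 (351 and 336 TPM against 0.42 and 0.27 TPM). The others were CTAG2, CTAG1A, MAGEA4, KLK4, PAFAH1B3, SSX2B, GPAT2, KRTCAP3, RAB5C and EDN2. The 15 largest in PC3 included PI3, KRT81, S100A9, the iron-carrier-binding protein LCN2 (0.28 and 0.20 TPM against 10421 and 9017 TPM), the acute-phase protein SAA1 (0.21 and 0 TPM against 1243 and 1146 TPM) and the antileukoprotease SLPI (0.31 and 0 TPM against 1166 and 535 TPM). The others were IL1B, S100A8, S100A16, CXCL1, ANXA2, S100A14, GSTP1, G0S2 and APOBEC3C.

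The promoters of the PC3-only genes were also set beside those of genes within 2-fold. The AP-1 motif TGANTCA, which reads as itself on the other strand apart from the central base, was found in 23 of the 129 promoter windows matched for the 165 PC3-only genes (17.8%). It was found in 7 of 92 windows matched for the 136 22RV1-only genes (7.61%) and in 241 of 6582 windows of genes within 2-fold (3.66%). Over all 27305 windows the share was 7.76%, so that of the 22RV1-only genes was close to it. GGANTTTCC was found in 12 of the PC3-only windows (9.30%), but in 1 of 115 (0.87%) once the members of the NF-kappaB list were left out, beside 1.31% of genes within 2-fold. AP-1 motifs were found in 18.3% of those 115 windows. The E-box CACCTG was in 29.5% of the PC3-only, 21.7% of the 22RV1-only and 17.9% of the within-2-fold windows, beside 20.6% of all windows. AGAACA was in 11.6%, 8.70% and 8.28%, each below the 14.9% of all windows. Base content moved with these shares, since 28.7% of PC3-only windows had 5 or fewer CG dinucleotides, against 12.0% of 22RV1-only windows and 4.18% of windows of genes within 2-fold. The part of base content in the motif shares was not tested.

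Most markers of other cell types were low in all libraries. Of 12 fibroblast, 12 endothelial and 13 leukocyte and erythroid markers, 8, 9 and 9 were under 1 TPM in both control libraries. The summed level of the endothelial list was 2.12 to 14.1 TPM across the libraries, that of the leukocyte and erythroid list 13.8 to 46.3 TPM and that of the fibroblast list 28.1 to 50.05 TPM. The leukocyte marker PTPRC was at or under 0.39 TPM in all 4 libraries. The fibroblast marker FBLN1 made up most of the sum of its list, at 27.8 and 33.2 TPM in 22RV1 and at 27.6 and 19.4 TPM in PC3. LUM was at 16.54 and 6.91 TPM in 22RV1 and at 0.04 TPM in both PC3 libraries, and CD68 was at 8.82 and 2.40 TPM against 38.4 and 35.6 TPM. By direction, 1 fibroblast marker was higher in PC3 and 2 in 22RV1, 2 endothelial markers were higher in PC3, and 2 leukocyte or erythroid markers were higher in each line.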

How the data were processed

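RNA-seq of 4 libraries was analysed, 1 each of 22RV1 and PC3 with control or DDX52 shRNA. Per the labels, RNA was extracted with Trizol and libraries were made with an Illumina TruSeq kit. The authors deposited 1 table of TPM per line. Their processing notes name CASAVA, HISAT2 and hg19. The tool that counted genes and its annotation are not given in the sources used here. Ensembl gene identifiers were paired with symbols, and 58453 of 60671 were found in GENCODE 29 (GRCh38), which gave gene types and gene order only. No coordinates of the data are given. Promoter windows are from RefSeq on GRCh38.p14.

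The tables were joined on gene identifier in Python 3.11.15 with pandas 2.3.3 and numpy 2.4.6. The log2 ratio used a pseudocount of 1 TPM, and a gene entered when either control library reached 1 TPM. A fold of 2 was the call. The calculation was tested on simulated data. With 1 library per group no test was run, no paired analysis was possible, and the depth of each library is unknown because TPM carries no counts.

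The members and the 27 gene lists were chosen with earlier results of these data known. The genes named are up to 6 of each list in each direction with the largest ratio that held, the 15 largest differences per direction at 10 TPM or more, genes in runs of at least 4 neighbours, and genes on which a list's name turns. Others, among them TMPRSS2, RELA, CD274 and the catenins, were named after their values were seen. Alternatives were a pseudocount of 0.1, no filter, a filter of 5 TPM, TPM recomputed over nuclear protein-coding genes or after removal of the mitochondrial genes with the 20 highest, ratios centred on the median, and the shDDX52 pair. One listed gene, GSTT1, was not matched. Some listed genes are counted within their lists but are not reported here by name.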

Additional observations from a re-analysis of the deposited data

Results flagged for a closer look

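For 2 named genes the shDDX52 library differed from the shCON library in opposite directions in the lines, by at least 2-fold in PC3 and by at least 0.32 on the log2 scale in 22RV1, so the size of the line difference depends on which pair of libraries is used. The log2 ratio of shDDX52 over shCON for VIM was -0.47 in 22RV1 and 2.31 in PC3. For MT2A it was -0.57 in 22RV1 and 1.29 in PC3. These differences between the lines were not tested, since each group is 1 library. No group had the 4 or more samples needed to look for a sample far from the others.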

How the results depend on the processing

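The median of all genes did not change sign under the alternatives tried, though over the same genes it was 0.0 in the shDDX52 pair. The median of chromosome 5 (0.0025) became -0.087 at a minimum of 5 TPM and -0.15 in the shDDX52 pair. List medians near 0 also changed sign. Those of nuclear receptors (0.24) became -0.29 at a minimum of 5 TPM and -0.017 in the shDDX52 pair, lineage factors (-0.18) became 0.13 and steroid and redox enzymes (0.17) became -0.12 in that pair, leukocyte and erythroid markers (-0.19) became positive there and with a pseudocount of 0.1, and tumour suppressors (0.05) became -0.0061 after centring. With 5 TPM as the minimum, 2158 genes were higher in 22RV1, since fewer genes were compared, and the other counts of called genes stayed within 1.5 times. Of 234 named genes past 2-fold all 234 kept their sign and 230 stayed past 2-fold in every alternative that gave a value. Most of them were named because they were past 2-fold in both pairs, so for the shDDX52 pair this follows from the choice. List medians shift because genes at or near 0 in a line depend on the pseudocount and the filter. With a pseudocount of 0.1 the medians were -7.19 for simple epithelial keratins, -5.68 for basal markers, 4.15 for neuroendocrine markers, -3.02 for mesenchymal genes, -3.43 for integrins and matrix, -2.50 for proteolysis, -4.93 for NF-kappaB genes, -4.93 for S100 and annexin genes, 8.92 for cancer-testis antigens, 2.15 for fibroblast, -5.65 for endothelial and 1.16 for leukocyte and erythroid markers. Without a filter they were -3.35 for simple epithelial keratins, -2.02 for basal markers, 0.31 for neuroendocrine markers, -0.59 for proteolysis, -2.72 for NF-kappaB genes, -0.19 for growth factors, -0.80 for surface antigens, 0.53 for cancer-testis antigens, 0.011 for fibroblast and -0.049 for endothelial markers. At 5 TPM they were 2.77 for neuroendocrine markers, -2.27 for mesenchymal genes, -1.90 for AP-1 genes, 0.0075 for fibroblast and -2.49 for leukocyte and erythroid markers. After removal of mitochondrial and the 20 highest genes the simple epithelial keratins were at -3.65. In the shDDX52 pair, with the filter applied to those libraries, the medians were -2.49 for mesenchymal genes, -2.45 for actin and YAP genes, -2.22 for S100 and annexin genes, -1.58 for endothelial and 1.57 for leukocyte and erythroid markers, and the cause was not tested. No paired analysis was possible because each group is 1 library and the labels give no replicate numbers. Depth could not be read from TPM.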
